A study of Canis lupus familiaris with 15 samples.

Results

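Interferon gamma (IFNG), the interleukin subunit IL12B and the chemokine CXCL10 were examined in archival skin biopsies of 15 dogs. The 3 genes were chosen by name, and each was matched through its RefSeq accession to 1 of the 160 probes of a custom NanoString panel (NM_001003174.1 for IFNG, NM_001003292.1 for IL12B and NM_001010949.1 for CXCL10). The assay counts fluorescent barcodes hybridised to RNA, without amplification, and was run on RNA from formalin-fixed, paraffin-embedded tissue. The groups were 7 dogs with DLE, discoid lupus erythematosus, aged 1 to 13 years, and 5 healthy dogs sampled at leg margins, whose ages the labels do not give. A further dog, aged 7 years, had CCLE, chronic cutaneous lupus with suspected systemic lupus, a dog aged 6 years had MLE, mucocutaneous lupus, and a dog aged 9 years had pyoderma, a bacterial skin infection, after an earlier label of DICLE. The lesional dogs were of various breeds and both sexes, treatments and lesional body sites are not given, and the healthy samples are marked as re-used. The labels list 1 case per sample, and these were counted as 15 dogs, so that p-values measure the spread between these samples.

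These genes belong to a cell-mediated immune circuit. IL12B encodes a chain shared by the interleukins 12 and 23, which macrophages and dendritic cells secrete, and interleukin 12 drives T cells and NK cells to make interferon gamma. Interferon gamma in turn induces CXCL10 in keratinocytes, endothelium and macrophages, and CXCL10 draws activated T cells through the receptor CXCR3. In lupus skin of people CXCL10 is also known as a target of type I interferons.

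The deposited values were whole counts. Panel counts summed to 495839 to 587169 in the DLE dogs and 209889 to 675018 in the healthy dogs, and 126 to 151 of 160 probes in the former and 103 to 148 in the latter exceeded a dog's background limit, set 2 SD above the mean of the 8 control rows with low counts. Normalised counts below are counts divided by TMM-scaled library sizes. The keratinocyte genes KRT1, KRT5 and KRT14 exceeded the limit in all 15 dogs. The 6 control rows with high counts differed between 2 sets of dogs: all DLE dogs, the MLE dog and the pyoderma dog had 1 set, and the healthy dogs and the CCLE dog had the other. Control-row set and diagnosis therefore coincide in the main comparison, and values with the set as a block compare the 9 lupus dogs with the other 6. Within 1 set that contrast is the CCLE dog against the healthy dogs. Within the other it is the DLE and MLE dogs against the pyoderma dog. Each blocked value thus has a single dog on 1 side of each set, and it does not retest DLE against healthy dogs alone. In DLE dog 3, 1 probe without a symbol (NM_001013425.1) held 39.6% of the panel counts, and its TMM factor was 0.445, while the factors of the remaining DLE dogs ran from 0.975 to 1.07. The reference gene RPL13A was lower in DLE (15330 ± 3412, n = 7) than in healthy dogs (31090 ± 8566, n = 5), without overlap. Values that rest on this dog are therefore given with and without it.

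The first comparison asked whether the 3 genes differ between discoid lupus and healthy skin. All 3 were higher in DLE dogs by edgeR's quasi-likelihood test, on a panel where 37.7% of the 154 probes tested were called higher and 61.7% were called in either direction. In bulk tissue, more cells of a type cannot be told apart from more RNA per cell.

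CXCL10, the chemokine, had the largest log2 change of the 154 probes. Its normalised counts in DLE dogs 1 to 7 were 5835, 18180, 451.5, 19384, 6758.5, 3094 and 5868. In healthy dogs 1 to 5 they were 31.5, 115, 48.7, 67.8 and 73.5. The groups did not overlap, as for 26.0% of the probes tested, but DLE dog 3 stood far below the other DLE dogs. The DLE mean was 8510 ± 7340 (SD, n = 7) and the healthy mean 67.3 ± 31.4 (n = 5). On the log2 scale CXCL10 rose by 6.98 ± 0.91 (SE; quasi-likelihood test in edgeR, adjusted p = 3.18e-05). Highest and lowest DLE dog differed 42.9-fold, and 6.27-fold without DLE dog 3. With the control-row set as a block the log2 change was 3.75 ± 0.91 (edgeR adjusted p = 0.00567).

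IFNG, the interferon of T cells and NK cells, was above background in every DLE dog and mostly at background in healthy skin. Its normalised counts in DLE dogs 1 to 7 were 50.9, 94.9, 110.4, 229, 87.2, 40.9 and 57.9. The healthy dogs stood at 17.3, 23.8, 15.2, 23.9 and 16.3, without overlap with the DLE dogs. DLE dog 4 stood highest by a wide gap, followed by DLE dog 3. IFNG exceeded the background limit in 7 of 7 DLE dogs and in 1 of 5 healthy dogs, so the healthy level is an upper bound. The deposited count was 11 in healthy dog 1, with an exact 95% Poisson interval of 5.49 to 19.7, and 41 in DLE dog 6, with an interval of 29.4 to 55.6 (counting error only). The log2 change was 2.31 ± 0.44 (SE, edgeR adjusted p = 0.000566), and 1.61 (adjusted p = 0.00723) with counts under the limit raised to it. With the control-row set as a block the call ended, at log2 0.97 ± 0.48 (edgeR adjusted p = 0.159).

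IL12B, the subunit of interleukins 12 and 23, had the smallest change of the 3. In DLE dogs 1 to 7 its normalised counts were 55.5, 98.7, 90.7, 207, 93.2, 94.9 and 77.8. The healthy dogs stood at 39.3, 23.8, 34.7, 59.0 and 36.7. DLE dog 4 was again the highest, the other DLE dogs lay close together, and DLE dog 1 lay below healthy dog 4, so that 6 of 7 DLE dogs exceeded all healthy dogs. IL12B exceeded the background limit in 7 of 7 DLE and 3 of 5 healthy dogs. The log2 change was 1.40 ± 0.35 (SE, edgeR adjusted p = 0.00306), and 1.17 ± 0.40 with the control-row set as a block (edgeR adjusted p = 0.040). Without the block, the call of IL12B was lost with panel median scaling (log2 0.66, edgeR adjusted p = 0.117) and in limma after quantile scaling (log2 0.43, adjusted p = 0.228). Across the panel, 22.1% of the 154 probes were called higher under that block.

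**Figure D1:**
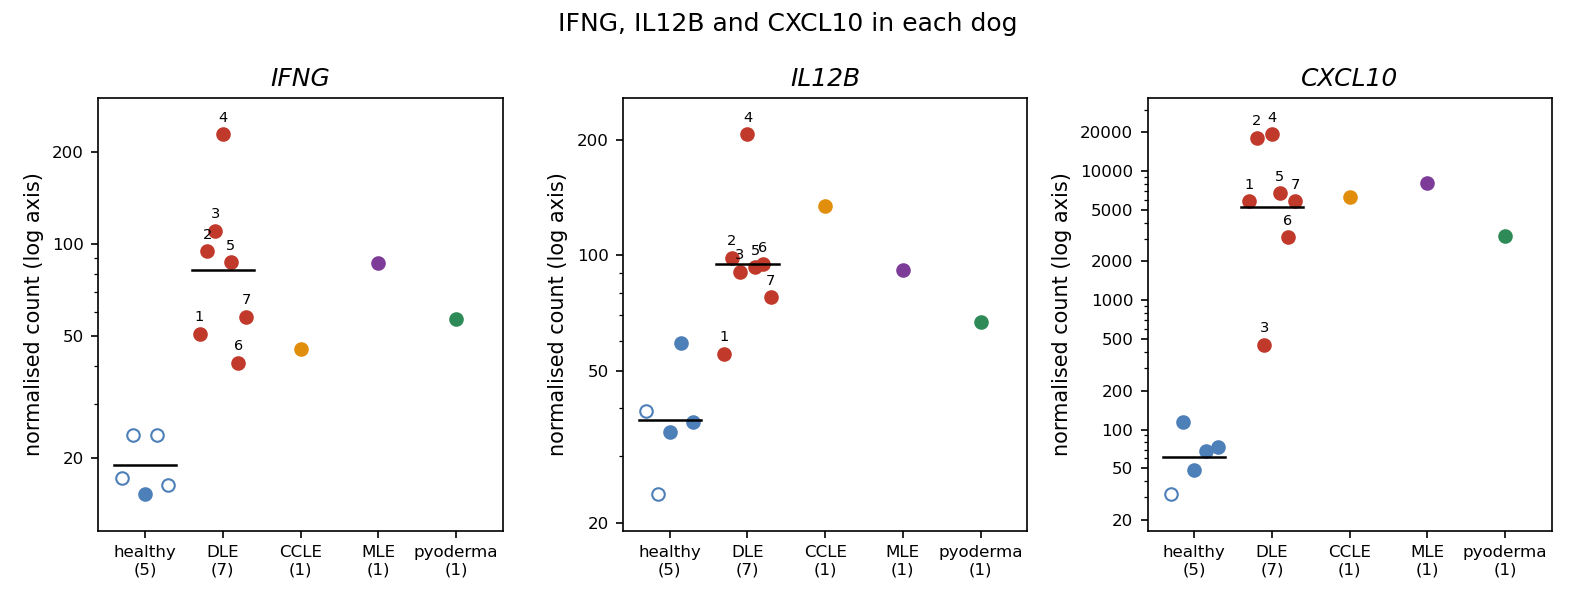
Normalised count (log axis) of IFNG, IL12B and CXCL10 in each of 15 dogs by diagnosis; points are dogs, numbers are the DLE dogs, open points lie at or below the dog's background limit, and bars are geometric means of groups with more than 1 dog. DLE dog 4 is the highest for all 3 genes, whereas DLE dog 3, at 451.5 for CXCL10, is the lowest DLE dog for that gene and the second highest for IFNG.

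The second comparison asked whether the chemokine follows the cytokine genes dog by dog. It was made within the 7 DLE dogs, the only group of at least 6, because healthy and lesional dogs form separate clusters. Over all 7 dogs no pair of genes passed the test on TMM-scaled counts. CXCL10 and IFNG had a Pearson r of 0.25 (exact permutation p = 0.596, adjusted over 3 pairs 0.596) and a Spearman rho of 0.46 (exact p = 0.302, adjusted 0.302) on log2(normalised count + 1). CXCL10 and IL12B had r = 0.37 (exact permutation p = 0.384, adjusted 0.576) and rho = 0.61 (exact p = 0.167, adjusted 0.302). IFNG and IL12B had r = 0.82 (exact permutation p = 0.0655, adjusted 0.196) and rho = 0.50 (exact p = 0.267, adjusted 0.302).

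These values turned on DLE dogs 3 and 4. The DLE dogs other than dog 3 kept a single order for both genes: from the highest, dogs 4, 2, 5, 7, 1 and 6 for CXCL10 and for IFNG alike. DLE dog 3 broke it, with the lowest CXCL10 and the second highest IFNG. Without dog 3, CXCL10 and IFNG had r = 0.87 and rho = 1.0 (n = 6, exact permutation p = 0.0028 for each, the smallest that 6 dogs allow, adjusted 0.0083). Dog 3 was singled out because it broke the order in these same values. The p-values do not account for that choice, so they do not test whether the genes track each other. Without dog 4, the highest for both genes, r was -0.19 and rho 0.14 (n = 6, exact permutation p = 0.778 and 0.803). Without dogs 4 and 6, the farthest from the IFNG median, r was -0.37 (n = 5, exact permutation p = 0.733).

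The values of IL12B turned on the same dogs. Without dog 3 its r with CXCL10 was 0.62 (n = 6, exact permutation p = 0.225), and without dog 4 it was -0.06 (exact p = 0.914). IFNG and IL12B had r between 0.80 and 0.96 without any 1 dog other than dog 4, and 0.44 without dog 4 (exact permutation p = 0.458). Without dogs 1 and 4, the farthest from the IL12B median, r was 0.14 for CXCL10 and 0.25 for IFNG (n = 5, exact permutation p = 0.633 and 0.667). On TMM-scaled counts the relation of IFNG to IL12B thus also rested on the highest dog. Over all 7 DLE dogs with panel median scaling, rho was 0.89 (exact permutation p = 0.0123, adjusted 0.0369) and r 0.83 (exact p = 0.0175, adjusted 0.0524). With DESeq2, reference gene and spike-in scaling r was 0.82, 0.86 and 0.92, none passing after adjustment (exact permutation, adjusted p = 0.205, 0.121 and 0.0577).

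**Figure D2:**
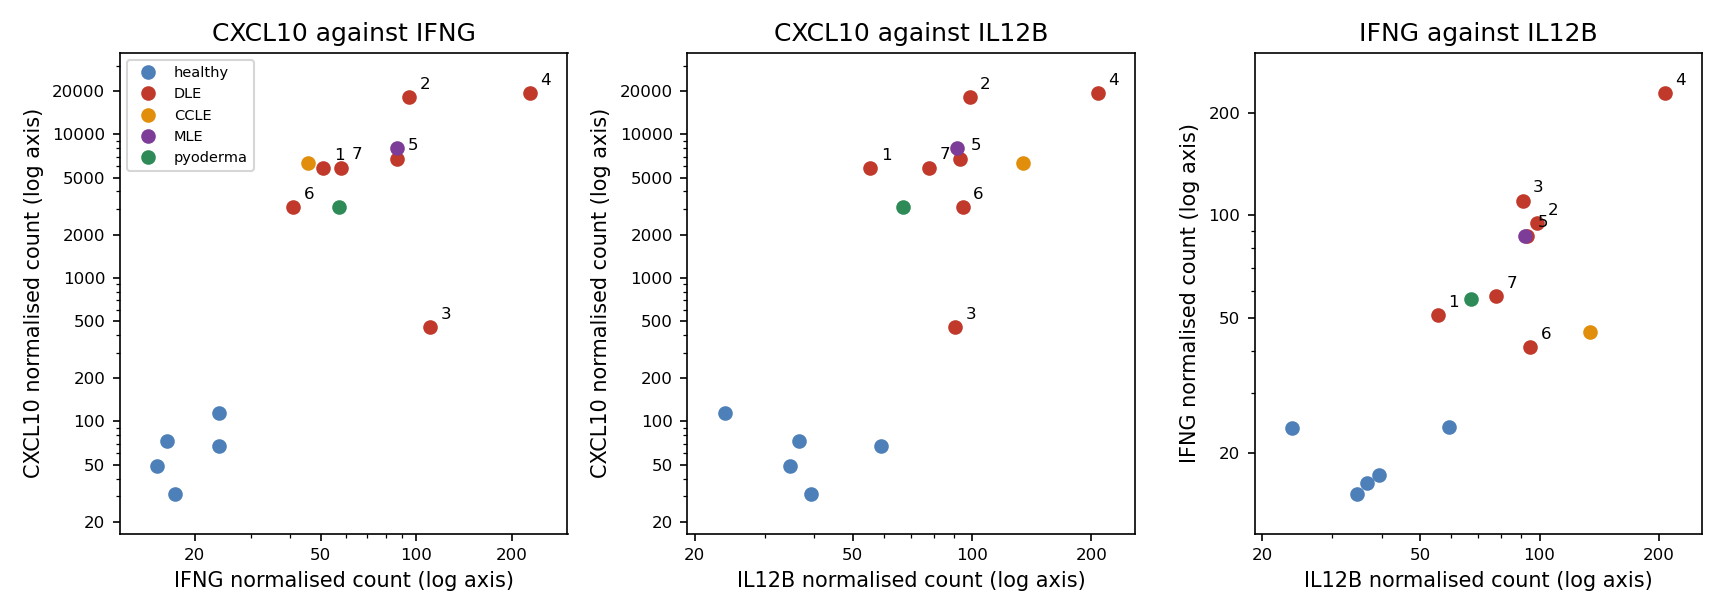
Normalised counts (log axes) of each pair of genes; points are the 15 dogs coloured by diagnosis, and numbers mark the DLE dogs. In the first panel DLE dog 3 lies far below the other 6 DLE dogs, whose order is the same on both axes (rho = 1.0 without dog 3, 0.46 with it).

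The place of DLE dog 3 for IFNG depended on the scaling. As deposited, its IFNG count was 56, equal to that of DLE dog 1, while CXCL10 was 229 in dog 3 and 6418 in dog 1. The reference gene HPRT1 stood at 336 counts in dog 3 and 711 in dog 1. Over the 7 DLE dogs the unscaled counts of CXCL10 and IFNG had r = 0.62 (exact permutation p = 0.0548, adjusted 0.0548) and rho = 0.90 (exact p = 0.0095, adjusted 0.0286), and those of CXCL10 and IL12B r = 0.77 and rho = 0.86 (exact permutation p = 0.021 and 0.0238, adjusted 0.0548 and 0.0357). Unscaled counts also carry the amount of RNA of each dog. For CXCL10 and IFNG, r was 0.12 with panel median, 0.29 with DESeq2, 0.42 with reference gene and 0.55 with spike-in scaling. In the same order rho was 0.32, 0.46, 0.61 and 0.79. None of these passed after adjustment, and the spike-in rho came closest (exact permutation p = 0.048, adjusted 0.0994). With MLE and pyoderma added, 9 dogs of 1 control-row set, r was 0.28 and rho 0.50 (exact permutation p = 0.451 and 0.178), and over 10 lesional dogs r was 0.24 and rho 0.47 (permutation p = 0.491 and 0.175).

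**Figure D3:**
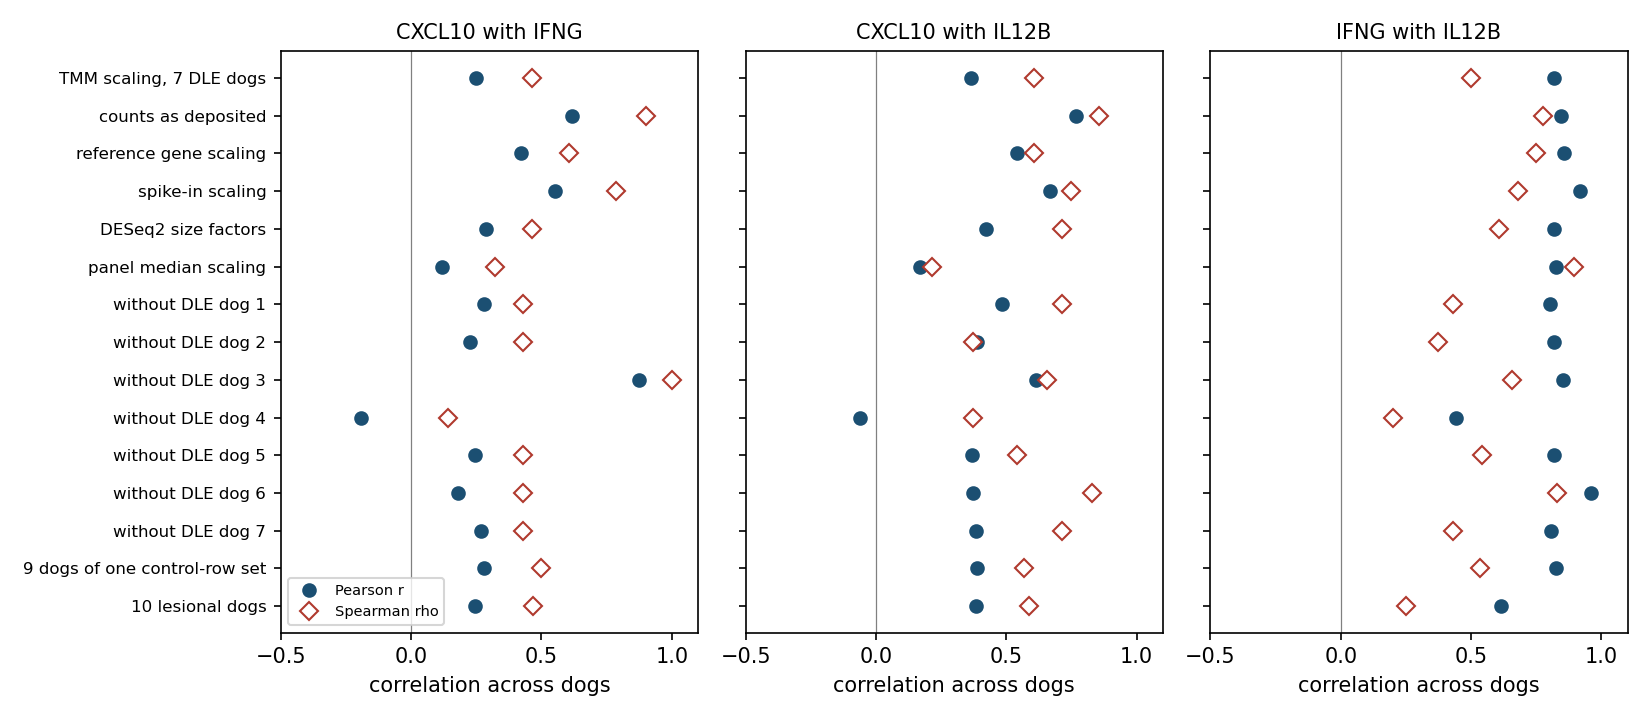
Pearson r (filled) and Spearman rho (open) for each pair of genes across DLE dogs, by scaling and with 1 dog left out; the last 2 lines add lesional dogs of other diagnoses. For CXCL10 with IFNG, r runs from -0.19 without DLE dog 4 to 0.87 without DLE dog 3.

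The third comparison asked whether the chemokine and the cytokine genes changed by the same amount, through ratios of deposited counts (+ 1) within each dog, which no scaling alters. The ratio of CXCL10 to IFNG was 112.6, 189.7, 4.04, 84.5, 76.8, 73.8 and 99.7 in DLE dogs 1 to 7. In healthy dogs 1 to 5 it was 1.75, 4.63, 3.12, 2.75 and 4.23. DLE dog 3 fell inside the healthy range and the other 6 DLE dogs lay far above it. With counts raised to the background limit, or with a pseudocount of 10, dog 3 lay just above that range (log2 2.01 over 1.66, and 1.86 over 1.79). The log2 ratio averaged 5.99 ± 1.81 in DLE (SD, n = 7) and 1.64 ± 0.56 in healthy dogs (n = 5), a difference of 4.35 (exact permutation p = 0.00758, adjusted over 3 ratios 0.0114). It was 5.01 without DLE dog 3 (exact permutation p = 0.00433, adjusted 0.00649) and 3.23 with the mean of the low control rows subtracted (exact p = 0.0126, adjusted 0.0189).

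The ratio of CXCL10 to IL12B also differed, with a log2 mean of 5.78 ± 1.71 in DLE and 0.71 ± 0.96 in healthy dogs. The difference was 5.07 (exact permutation p = 0.00253, the smallest possible, adjusted 0.00758), and no DLE dog reached down into the healthy range, although DLE dog 3 (2.29) lay only just above healthy dog 2 (2.21). The log2 ratio of IFNG to IL12B was -0.21 ± 0.49 in DLE and -0.93 ± 0.52 in healthy dogs, a difference of 0.72 that did not pass the test (exact permutation p = 0.0606, adjusted 0.0606). It passed without DLE dog 6 (0.88, exact permutation adjusted p = 0.0216), without healthy dog 2 (0.95, adjusted 0.0242) and with the low control mean subtracted (1.64, adjusted 0.0227).

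**Figure D4:**
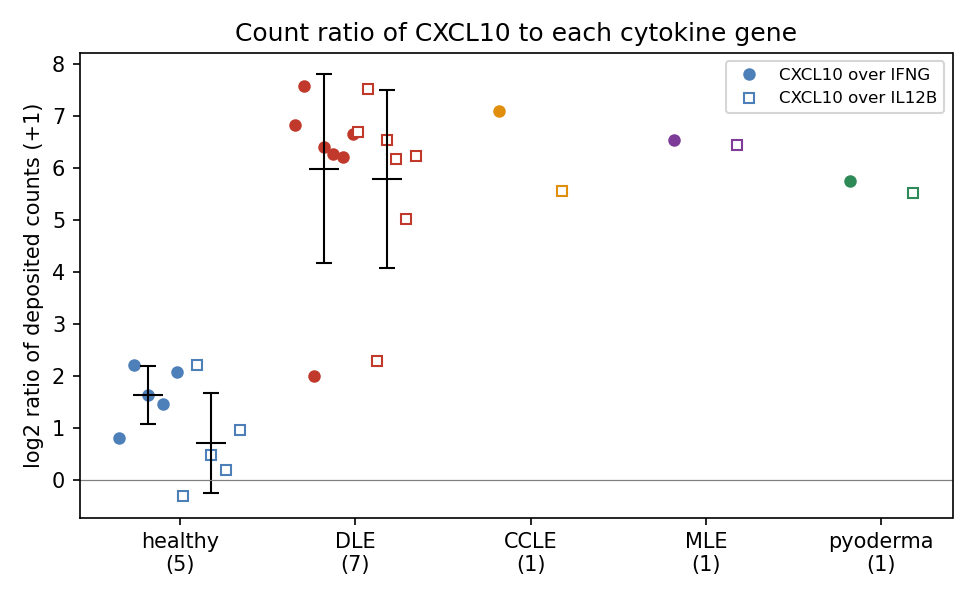
Log2 ratio of deposited counts (+ 1) of CXCL10 to IFNG (filled circles) and to IL12B (open squares) in each dog by diagnosis; horizontal marks and bars are the mean and SD of groups with more than 1 dog. DLE dog 3, at 2.01 for CXCL10 over IFNG, lies within the healthy dogs' range, and the CCLE, MLE and pyoderma dogs lie near the other DLE dogs.

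The dogs with CCLE, MLE and pyoderma were set beside both groups, each without replicate. All 3 genes lay above the healthy range and inside the DLE range in each of the 3 dogs. A stricter rule asked for a value above all healthy dogs and also at least 2-fold over their mean log2 value. It was met by 33.5% of 158 probes in the CCLE dog, 33.5% in the MLE dog and 27.2% in the pyoderma dog. IL12B in the pyoderma dog did not meet this rule, with a log2 difference of 0.84 from healthy dogs. The share of probes that lay above the healthy range, without the 2-fold condition, is not given. By arithmetic mean the order of CXCL10 was DLE (mean 8510), MLE (8073), CCLE (6327), pyoderma (3130) and healthy (67.3). The first 4 did not differ beyond the DLE spread. The DLE median was 5868, below the MLE and CCLE dogs, which lay 0.61 and 0.26 above the DLE mean on the log2 scale. For IFNG the order by arithmetic mean was DLE (mean 95.8), MLE (86.7), pyoderma (56.9), CCLE (45.4) and healthy (19.3). On the log2 scale the MLE dog lay 0.07 above the DLE mean. IL12B was highest in CCLE (134), followed by DLE (mean 103), MLE (91.9), pyoderma (67.1) and healthy (38.7), and again the lesional levels lay within the DLE spread.

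The CCLE dog had high IL12B without high IFNG. Its IL12B exceeded that of 6 of 7 DLE dogs and its IFNG that of 1, and the ratio of IFNG to IL12B, 0.343, was the lowest of the 15 dogs. A low ratio was not particular to it: healthy dogs 1, 3, 4 and 5 stood at 0.4615, 0.4483, 0.4167 and 0.4643, and DLE dog 6 at 0.4375. The CXCL10 to IFNG ratio of the CCLE dog was 136. This dog shared the control-row set of the healthy dogs, and within that set its CXCL10 lay 6.66, its IL12B 1.83 and its IFNG 1.22 above the healthy mean on the log2 scale. The pyoderma dog shared the set of the DLE dogs. There its CXCL10 lay at -0.75, its IFNG at -0.52 and its IL12B at -0.50 from the DLE mean on the log2 scale, and its CXCL10 to IFNG ratio was 54.0. The MLE dog stood at a ratio of 92.3, with its 3 genes within 0.61 of the DLE mean on the log2 scale.

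Genes of the pathway were read from lists that were chosen with earlier results of these data known and that hold IFNG, IL12B and CXCL10 themselves. Of 62 listed genes 13 matched a probe with a symbol. Of the 13, 9 rose, 3 fell and 1 was not called, on a panel with 37.7% of probes called higher and 61.7% called in all. IFNG, IL12B and CXCL10 are among the 9 that rose, so the count is not separate from them. The median log2 change of the 13 was 1.40, which is the value of IL12B itself, against 0.42 over all 154 probes. None of the 12 listed receptors and signalling genes, and neither CXCL9 nor CXCL11, matched a probe with a symbol, while 88 probes have none here. B2M, the light chain of class I antigen-presenting molecules and an interferon target, had a mean normalised count of 108600 ± 17630 in DLE (SD, n = 7) and 41250 ± 8209 in healthy skin (n = 5; log2 1.40 ± 0.30, edgeR adjusted p = 0.00117). Among the listed T cell chemokines, CCL5 rose 50.9-fold, CCL4 3.54-fold and CCL3 2.39-fold. With the control-row set as a block, CCL4 was not called (log2 0.92, adjusted p = 0.332) and CCL3 turned direction (log2 -0.19, adjusted p = 0.834). The CCL3 call was lost with DESeq2 size factors (adjusted p = 0.0536), quantile (0.422) and panel median scaling (0.209). TNF, the macrophage and T cell cytokine, rose 3.50-fold. KLRD1, which pairs with NKG2 receptors on NK cells, rose 3.73-fold.

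No other measured interferon was called higher. IFNB1, IFNA5 and IFNA7, type I interferons, fell (log2 -1.32, -3.65 and -1.70), and IFNK, the keratinocyte interferon, was not called (-0.37, edgeR adjusted p = 0.376), with its sign turned under reference gene scaling (0.34). The IFNB1 call was lost with reference gene (log2 -0.61, adjusted p = 0.066) and spike-in scaling (-1.15, 0.0623), and that of IFNA7 with reference gene scaling (-1.06, 0.0527). IFNA5 and IFNA7 are closely alike in sequence, so their probes may share transcripts. IFNB1 exceeded the background limit in 1 of 7 DLE dogs, IFNA5 in 0, IFNA7 in 3 and IFNK in 0, so their DLE levels are upper bounds. Of the 5 healthy dogs, 3 exceeded it for IFNB1, 3 for IFNA5, 4 for IFNA7 and 1 for IFNK. IFNA5 and IFNA7 overlapped between the groups, and IFNA5 in healthy dogs ran from 2.6 to 242 normalised counts. With the control-row set as a block, 6 of the 13 genes were called, all higher (CXCL10, B2M, IL12B, CCL5, TNF and KLRD1), where 22.1% of the 154 probes were called higher.

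**Figure D5:**
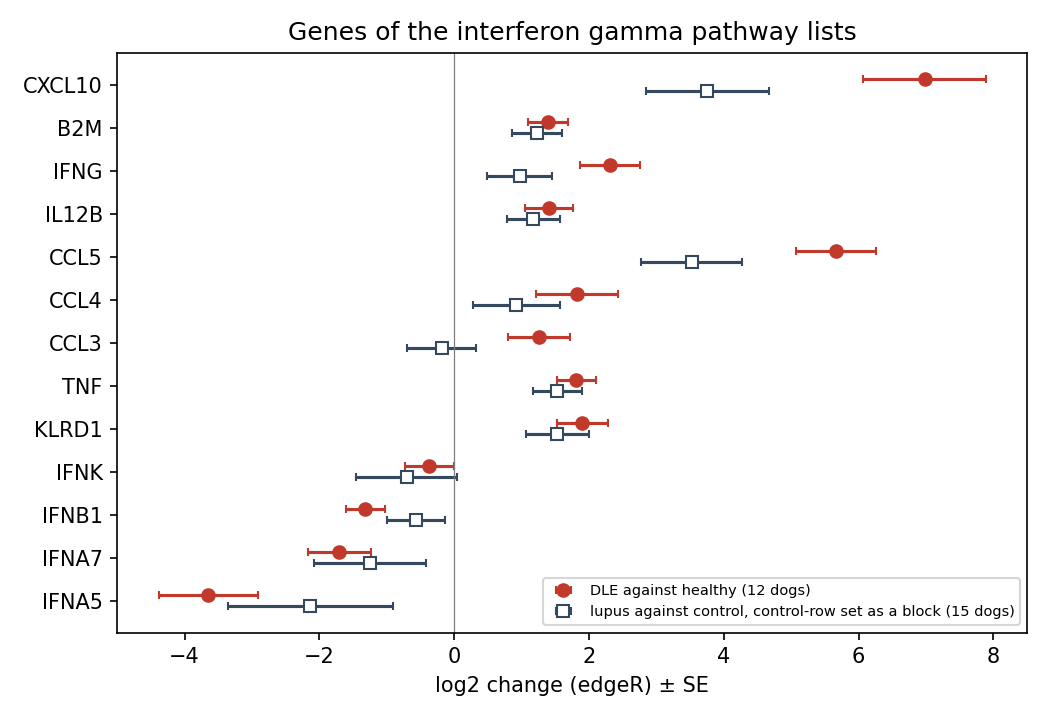
Log2 change (edgeR, bars are SE) of the 13 measured genes of the pathway lists; filled circles compare 7 DLE with 5 healthy dogs, open squares compare 9 lupus with 6 other dogs with the control-row set as a block. CXCL10 has the largest change in both, and IFNG moves from 2.31 to 0.97 with the block.

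Markers of cells that make or answer interferon gamma were also compared, and their part in the results was not tested. CD40LG, KLRD1, MS4A1, CD86 and CCL19 did not overlap between DLE and healthy dogs, as 26.0% of the 154 probes did not, with DLE the higher group. Of the listed T cell markers 1 of 10 was measured, CD40LG, with normalised counts of 26.6 to 98.7 in DLE and 8.17 to 17.6 in healthy dogs. Of the NK cell markers 1 of 5 was measured, KLRD1, at 84.9 to 358 and 35.3 to 60.3. The macrophage markers CD163 and CD86, 2 of 8 listed, summed to 1023 to 2197 in DLE and 774 to 3040 in healthy dogs, a sum of opposite changes, since CD86 rose (log2 1.53, edgeR adjusted p = 0.000385) and CD163 fell (log2 -1.41, adjusted p = 0.00226). The dendritic cell genes CCL17 and CCL19, 2 of 8, summed to 525 to 2061 and 192 to 352. CCL19 rose (log2 2.43, edgeR adjusted p = 0.000176), whereas CCL17 overlapped and was not called (log2 1.71, adjusted p = 0.138). The B cell gene MS4A1, 1 of 5, stood at 81.6 to 300 and 14.2 to 21.8. No measured marker had a count of 0 in any dog.

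Within DLE, the dog with the most IFNG was not the dog with the most T cell or NK cell marker. DLE dog 4, the highest for IFNG, IL12B and TNF, had the lowest KLRD1 (84.9) and the second lowest CD40LG (35.1). DLE dog 3, with the lowest CXCL10, also had the lowest CCL5 (637), CD86 (666) and B2M (89980) and the highest sum of the 3 keratinocyte genes (259100), with CD40LG (53.2) at the median. It was the youngest DLE dog, at 1 year, and dog 4 the oldest, at 13 years. Across the 7 DLE dogs the rho of IFNG was -0.68 with CD40LG and -0.57 with KLRD1, that of IL12B -0.82 and -0.64, on normalised counts that share a scaling factor per dog. On unscaled counts the same values were -0.23 and -0.02 for IFNG and -0.11 and -0.11 for IL12B, so the strong negative values appeared only after scaling.

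The probes most like each gene across the 7 DLE dogs were taken by Spearman rho among the 153 other probes kept. The monocyte chemoattractants CCL8 and CCL2 had the same order as CXCL10 in all 7 DLE dogs (rho = 1.0, r = 0.92 and 0.85), followed among genes with a symbol by CCL13 (0.89) and CD86 (0.79). CCL8 ran from 67.0 normalised counts in DLE dog 3 to 1464 in dog 4, and CCL2 from 830.0 to 3427 in the same dogs. Neither was called between DLE and healthy dogs (CCL8 log2 1.03, CCL2 -1.04, edgeR adjusted p = 0.209 and 0.0631). By Spearman rho, IFNG held place 28 and IL12B place 16 among the 153 probes in likeness to CXCL10. By Pearson r the places were 52 and 40, where the median r was -0.05. Without DLE dog 3, IFNG held place 8 by r and shared place 1 by rho. Without dog 4 it held place 84 by r and 48 by rho.

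The nearest genes are given here among those with a symbol, and probes without one ranked above some of them. In the 7 DLE dogs IFNG was most like IL4 (rho 0.96), the mast cell gene MS4A2 (0.96), CXCL8 (0.93) and IL1B (0.82). IL4 exceeded the background limit in 1 of these dogs. Without DLE dog 3, CCL8, CXCL10 and CCL2 had the same order as IFNG (rho 1.0 each), followed by IL4 (0.94). Without dog 4 the list again began with IL4 (0.94), MS4A2 (0.94) and CXCL8 (0.89). IL12B was most like CCL13 (0.82), OXTR (0.79), CCL20 (0.75) and CCL28 (0.71). CCL13 and CCL28 exceeded the background limit in 5 of 7 DLE dogs each, and OXTR in 3, with r = 0.46 to IL12B. CCL13 stayed among the 4 nearest to IL12B without DLE dog 3 (0.83), whereas OXTR, CCL20 and CCL28 did not. Over all 15 dogs the diagnoses set most of the likeness. There CXCL10 (rho 0.82) and IL12B (0.75) led the genes with a symbol for IFNG, with KRT14 (0.74) and CEACAM1 (0.74). Among all 153 probes CXCL10 held place 3 and IL12B place 7. By the same limit IL12B was most like CXCL10 (0.80, place 2), TNF (0.79), CCL5 (0.77) and IFNG (0.75). CXCL10 was most like CD86 (0.86, place 3), TNF (0.83), IFNG (0.82) and CCL4 (0.80).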

How the data were processed

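NanoString counts from skin biopsies of 15 dogs were used. The authors deposited whole counts per probe, as judged from the values, for 160 panel probes and 14 control rows. RNA came from paraffin curls, per the labels' protocols; the counting software is not stated there. Accessions were matched, versions ignored, to a RefSeq gene table (UU_Cfam_GSD_1.0), which named 72 probes; genome positions were left out since no build is named. TMM scaling used the 160 panel probes of all 15 dogs, HPRT1 and RPL13A were left out of tests, filterByExpr kept 154 probes, and edgeR 4.0.16 (glmQLFit, glmQLFTest; limma 3.58.1 and DESeq2 1.42.0 for alternatives) tested 7 DLE against 5 healthy dogs with no covariate. Standard errors are the log2 change over the root of F. Adjusted p (Benjamini-Hochberg) under 0.05 was called. The fit was checked on simulated counts. Correlations used all 5040 pairings of 7 dogs, ratios all 792 splits of 12 dogs, two-sided. Named genes were the 3 members, TNF, CCL5, KLRD1, CD86, the measured pathway and marker genes, HPRT1, RPL13A and the 4 symbol-bearing probes most like each member. The members and lists were chosen with earlier results of these data known. CXCL9, CXCL11 and NM_001013425.1 are named outside that rule. Alternatives covered scaling, test, filter, background, pseudocount, blocks and each dog left out.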

Additional observations from a re-analysis of the deposited data

Results flagged for a closer look

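In 4 of 18 groups of values tested, 1 dog stood apart from the rest of its group by more than Dixon's limit. Chance alone exceeds that limit in about 1 of 20 independent groups. The 18 groups reuse the same counts, on both scales and in ratios, so they are not independent. The count of 4 was not tested against that rate. DLE dog 4 stood above the other 6 DLE dogs for IFNG (228.6 normalised counts) and for IL12B (207.4), though not on the log2 scale. DLE dog 3 stood below the others for the log2 ratio of CXCL10 to IFNG (2.01). Healthy dog 2 stood above the other 4 healthy dogs for the log2 ratio of IFNG to IL12B (0.0, equal counts of 18), with both genes below its background limit.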

How the results depend on the processing

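Over the alternatives run, CXCL10 kept its rise (log2 3.75 to 7.76). IFNG kept it except with the control-row set as a block (0.97), and IL12B except with panel median (0.66) and quantile scaling (0.43). The control-row block, with a single dog on 1 side of each set, left 40 probes called in place of 95. Calls were 61.1% higher under TMM, 83.0% under reference gene, 77.0% under spike-in, 46.4% under quantile and 41.1% under panel median scaling, with median log2 changes of 0.42, 1.09, 0.74, -0.14 and -0.24. Relative to that median, IL12B changed by 0.98 under TMM, 0.91 under panel median and 0.57 under quantile scaling. With 1 dog left out, calls numbered 90 to 97, and the log2 changes ranged from 1.93 to 2.44 for IFNG, 1.13 to 1.61 for IL12B and 6.63 to 7.26 for CXCL10. The correlations ranged from -0.19 to 0.87 (CXCL10 with IFNG), -0.0624 to 0.62 (CXCL10 with IL12B) and 0.44 to 0.96 (IFNG with IL12B), the last passing the test without DLE dog 6 (adjusted p = 0.0333, exact permutation). Over all 7 DLE dogs the rho of IFNG with IL12B passed with panel median scaling (0.89, exact permutation adjusted p = 0.0369). The unscaled rho of CXCL10 with IFNG and with IL12B passed too (exact permutation adjusted p = 0.0286 and 0.0357). Without the 2 dogs farthest from the median CXCL10 with IFNG gave -0.37. The ratio differences ranged from 4.08 to 5.01, 4.78 to 5.65 and 0.64 to 0.95, and IFNG to IL12B was 1.64 with the low control mean subtracted; the cause of these shifts was not tested. The replicate numbers name cases and do not pair dogs (correlations of deviations -0.14 to 0.18). With the replicate block 85 probes were called and the log2 changes were 2.43 for IFNG, 1.42 for IL12B and 6.72 for CXCL10. The blocked ratio differences were 4.17, 5.13 and 0.96, tested over 5 numbered pairs whose smallest exact p is 0.0625, so none could pass. Low counts limit IFNG and IL12B in healthy dogs.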
